A study of Rattus with 8 samples.

Results

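Late-numbered miRNAs, taken here as the mature rat miRNAs of miRBase whose names carry a number of 800 or more, were described in the hippocampus of rats that had undergone bypass of heart and lungs (CPB) and circulatory arrest in deep hypothermia (DHCA). Every mature name of the form rno-miR-N in the deposited count table with N of at least 800 was taken, whatever its letter, locus or arm, and newly predicted sequences were left out. This gave 41 mature miRNAs, each used once, of 615 in the table (464 of miRBase and 151 predicted). The 423 other miRBase miRNAs, which include let-7, carry lower numbers and served as the comparison.

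Small RNA was sequenced from the hippocampus of 4 rats of the CPB/DHCA group (libraries DHCA1 to DHCA4) and 4 sham-operated rats of the control group (libraries NC1 to NC4), with 1 library per rat. All were male Sprague-Dawley rats of 9 weeks under sevoflurane anaesthesia, intubated, ventilated and cannulated. Rats of the CPB/DHCA group were put on bypass, cooled to 18 °C over 30 min, kept in circulatory arrest for 30 min, rewarmed and weaned, whereas control rats received neither bypass nor arrest. The hippocampus was collected 24 h later in either group, so the comparison joins bypass, cooling, arrest and rewarming and cannot tell them apart. The paper left out rats of the CPB/DHCA procedure after technical failure, acute complications or death before 24 h, and reports no such losses among the controls. The CPB/DHCA libraries thus come from rats that completed the procedure and survived to collection.

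A miRNA gene is transcribed into a hairpin precursor, from which Drosha and Dicer cut a short duplex. One strand, from the 5p or the 3p arm of the hairpin, is kept in an Argonaute protein and directs it to messenger RNAs, mainly through the seed (bases 2 to 8). miRBase numbers follow the order of registration, so high numbers largely belong to miRNAs found by deep sequencing rather than by cloning. Among them are mirtrons, whose hairpins are spliced introns that bypass Drosha, miRNAs cut from small nucleolar (sno) or small Cajal body (sca) RNAs, which otherwise guide the modification of other RNAs, and miRNAs within introns of neuronal genes.

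The sequences of the miRNAs on which the results turn are given from the deposited table, 5′ to 3′, with the seed in capitals. The first set holds the 7 that exceeded 100 CPM on average, CPM being the counts scaled to the normalized size of the library.
miR-1298: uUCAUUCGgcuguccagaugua
miR-1843a-5p: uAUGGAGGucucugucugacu
miR-1839-5p: aAGGUAGAuagaacaggucuug
miR-872-3p: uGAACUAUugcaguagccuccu
miR-3068-3p: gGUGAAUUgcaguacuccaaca
miR-1249: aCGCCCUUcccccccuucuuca
miR-879-5p: aGAGGCUUauagcucuaagcc
The next are the rare miRNAs with the highest ratios of the CPB/DHCA group over the control group.
miR-6331: cUUUGGUGgcuuaguucuuugugc
miR-6321: uACUGCAGugaguucuaugaagc
The last are the miRBase miRNAs that share a seed, namely miR-1193-3p with the lower-numbered miR-370-5p, and the 3p arms of miR-1843a and miR-1843b.
miR-1193-3p: uAGGUCACccguuuuacuaucc
miR-370-5p: cAGGUCACgucucugcaguuacac
miR-1843a-3p: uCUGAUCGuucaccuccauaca
miR-1843b-3p: uCUGAUCGuuccccuccauac

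Late-numbered miRNAs were mostly rare in these libraries, and their seeds were mostly their own. The 41 mature sequences had 40 distinct seeds, and their lengths of 18 to 25 nt (median 22 nt) and median GC content of 47.6% equalled those of the lower-numbered miRBase miRNAs. Of the 41, 3 shared a seed with another listed miRBase miRNA (7.32%), against 130 of the 423 lower-numbered ones (30.7%). Only miR-1193-3p shared one with a lower-numbered miRNA. No test was made of these shares, and a lower-numbered miRNA has more relatives of its own kind to share with.

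Total counts ranged from 508574 to 672378 in the CPB/DHCA libraries and from 620133 to 772840 in the control libraries, and 1 tag was worth 1.20 to 2.00 normalized CPM. No count below 2 is listed. A miRNA not listed in a library may thus have had 0 or 1 tag there, and 0 was used. miRNAs of neurons, the check of the tissue, were listed for 5 of 5 markers and summed to between 184465 and 372518 CPM in the CPB/DHCA libraries and between 235151 and 338958 CPM in the control libraries. Markers of other cells were also present, and those of oligodendrocytes (4 of 4 listed) spanned 5361 to 23252 CPM in the CPB/DHCA libraries and 6498 to 8118 CPM in the control libraries. Libraries of the same group differed by far more than their counting error (chi-square statistic of 10.5 to 175 for each degree of freedom, over all pairs within groups). In bulk tissue, fewer cells of a type and less RNA per cell cannot be told apart.

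Together the 41 miRNAs held 0.294, 0.224, 0.340 and 0.257% of the counts in DHCA1 to DHCA4, against 0.285, 0.395, 0.244 and 0.289% in NC1 to NC4. The means were 0.279 ± 0.0498% in the CPB/DHCA group and 0.303 ± 0.0645% in the control group (SD, n = 4 each), and the ranges overlapped. Between 26 and 30 of them were listed in a CPB/DHCA library and between 29 and 34 in a control library, the most being in NC2, the deepest library.

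Of the 41 miRNAs, 34 were listed in both groups, 2 only in the CPB/DHCA group and 5 only in the control group. Those 7 rested on 2 to 4 tags in 1 library each, so a difference between the groups was not detectable at this depth. Listing in all 8 libraries was reached by 17 of the 41 (41.5%) and by 297 of the 423 lower-numbered miRBase miRNAs (70.2%), and the medians of their mean levels were 6.00 and 50.6 CPM. Counts of different miRNAs also depend on how well each sequence takes up the adaptors, so levels between miRNAs are approximate.

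The levels were far from even. 7 of the 41 exceeded 100 CPM on average, 9 lay between 10 and 100 CPM and 25 at or below 10 CPM, and the 10 most abundant took 90.2% of the 15487 tags. miR-1298 alone took 25.2%. It ranked 91 and miR-1843a-5p ranked 92 of the 464 miRBase miRNAs by mean CPM. By number, the 10 miRNAs under 1000 had a median level of 25.3 CPM, the 15 from 1000 to under 2000 one of 8.05 CPM and the 12 from 3000 to under 4000 one of 5.44 CPM. Names without an arm, 18 of the 41, had a median level of 4.14 CPM, against 43.8 CPM for the 11 names of a 5p arm and 5.80 CPM for the 12 of a 3p arm.

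**Figure D1:**
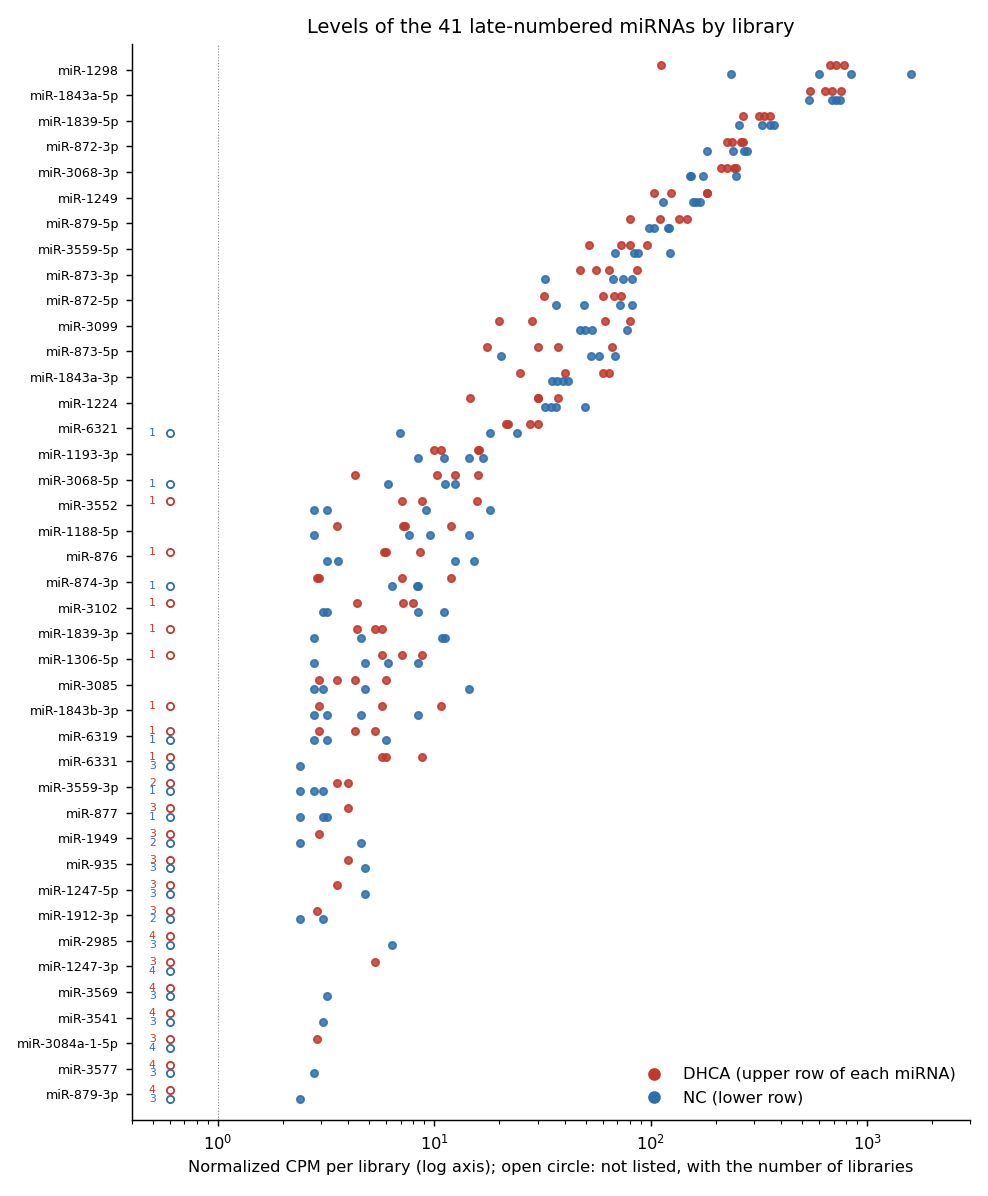
Normalized CPM (horizontal, log axis) of each of the 41 late-numbered miRNAs in each of the 4 CPB/DHCA libraries (red, upper line of points) and 4 control libraries (blue, lower line), ordered by mean level. Open circles left of the dotted line give the number of libraries in which a miRNA was not listed. From miR-1298 at the top, where DHCA2 (112 CPM) and NC2 (1599 CPM) lie far apart, the levels fall to 2 tags in 1 library at the bottom, and the colours overlap in every line that was tested.

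For the comparison, edgeR's quasi-likelihood test was fitted over 467 miRNAs, which were those listed in 4 or more libraries with a total of 10 counts or more. 29 of the 41 late-numbered miRNAs passed this filter. The other 12, with 2 to 8 tags each, were not tested. Of the 29, 1 passed the thresholds (fold change of at least 1.5, unadjusted p no higher than 0.05), against 34 of all 467 tested miRNAs (7.28%). That one was miR-6331, in the direction in which 3.85% of all tested miRNAs passed, while none passed downwards, where the share over all was 3.43%. At an unadjusted p under 0.05 the count was also 1, against 8.35% of all tested, and with DESeq2 it was 0. None reached an adjusted p under 0.05 in edgeR or DESeq2, which 0.214% of all tested miRNAs did in edgeR. In none of the 29 were the groups free of overlap, against 4.71% of all tested.

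The median log2 fold change (CPB/DHCA over control) of the 29 was -0.03, with 11 above 0 and 18 below, beside -0.05 over all tested miRNAs, with 189 above and 278 below. Of the 29 fitted 95% intervals, 28 included 0. For the 10 most abundant, the log2 fold changes ranged between -0.52 and 0.34, with adjusted p of 0.73 to 1.0 in edgeR.

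**Figure D2:**
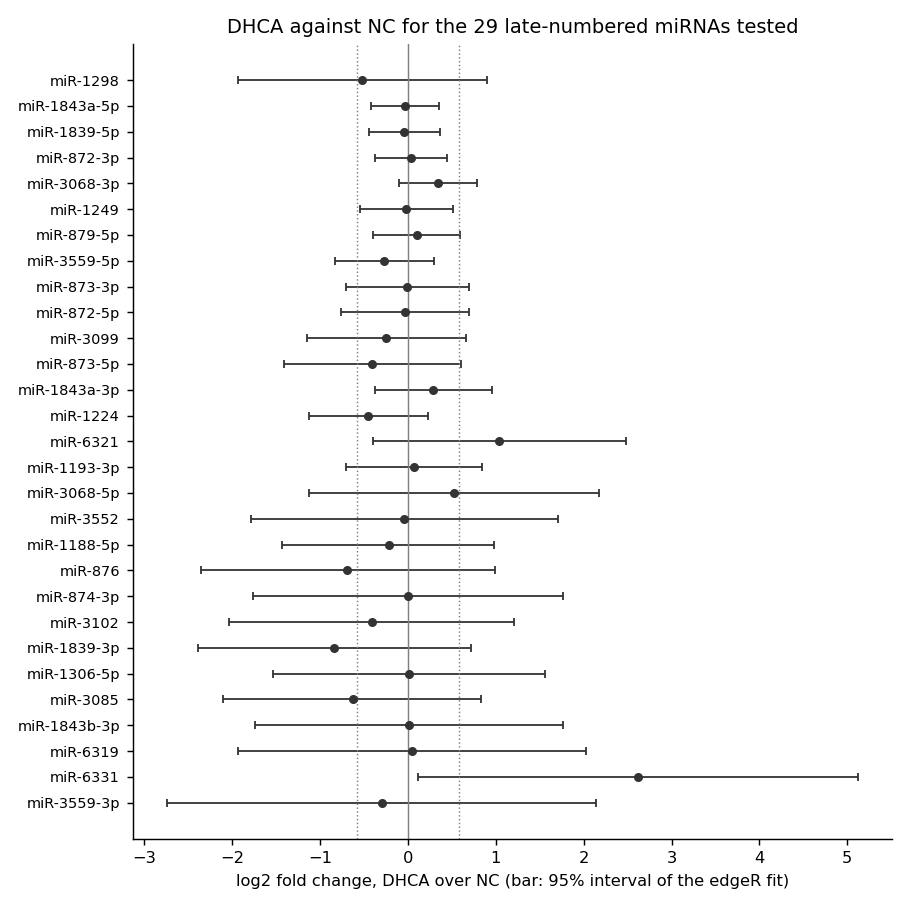
log2 fold change, CPB/DHCA over control, of the 29 late-numbered miRNAs tested (points), with the 95% interval of the edgeR fit (bars), ordered by mean level from the top. Dotted lines mark a fold change of 1.5 in either direction. The interval of the most abundant, miR-1298 (-1.93 to 0.90), is wider than that of miR-1843a-5p next to it (-0.42 to 0.35), and only that of miR-6331 (0.12 to 5.12) leaves out 0.

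miR-1298 is one of 5 miRNA genes that lie within Htr2c, the gene of the serotonin receptor 2C, in the RefSeq annotation of GRCr8, together with those of miR-3552, miR-1912 and the lower-numbered miR-448 and miR-764. Its level was 675, 112, 781 and 716 CPM in DHCA1 to DHCA4, against 839, 1599, 234 and 602 CPM in NC1 to NC4. The highest library held 14.3 times the level of the lowest, the widest ratio among the late-numbered miRNAs listed in all 8 libraries. DHCA2 lay below and NC2 above all other libraries, and the remaining libraries of the groups overlapped. The means were 571 ± 309 CPM in the CPB/DHCA group and 819 ± 577 CPM in the control group (SD, n = 4 each). The log2 fold change was -0.52 (standard error 0.63, 95% interval -1.93 to 0.90, adjusted p = 0.96 in edgeR), and an exact two-sided permutation test gave p = 0.49. Without NC2 it was 0.08 and without DHCA2 -0.13, so its sign rested on NC2. The mean was 724 ± 53.3 CPM in the CPB/DHCA group without DHCA2, and 559 ± 305 CPM in the control group without NC2 (SD, n = 3 each).

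The other miRNAs of Htr2c had their extremes in the same libraries. miR-448-3p had 30.8, 6.01, 37.1 and 21.3 CPM in DHCA1 to DHCA4, against 29.0, 73.0, 9.71 and 22.4 CPM in NC1 to NC4. miR-764-3p had 23.4, 0, 34.3 and 8.89 CPM in DHCA1 to DHCA4, against 15.3, 49.1, 4.16 and 7.99 CPM in NC1 to NC4. miR-3552 had 6, 0, 11 and 4 tags in DHCA1 to DHCA4, against 6, 15, 2 and 2 tags in NC1 to NC4. For miR-1298, miR-448-3p, miR-764-3p and miR-3552 alike, NC2 was the highest library and DHCA2 the lowest or empty. miR-1912-3p had 2 tags in DHCA3, against 2 each in NC1 and NC2, too few to order the libraries.

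Tags of miR-1298 per tag of miR-448-3p varied less between libraries than either miRNA did, at 22.0, 18.7, 21.0 and 33.6 in DHCA1 to DHCA4 (that of DHCA2 resting on 3 tags of miR-448-3p), against 28.9, 21.9, 24.1 and 26.9 in NC1 to NC4. miR-1298, whose seed no other listed miRNA shares, took a varying part of all late-numbered tags, namely 23.4, 4.93, 25.9 and 24.8% in DHCA1 to DHCA4, against 28.2, 43.7, 9.16 and 21.0% in NC1 to NC4. Htr2c is strongly expressed in the epithelium of the choroid plexus as well as in neurons. The markers of choroid plexus and ependyma, 5 of 5 listed, summed to 1512, 1178, 3658 and 1863 CPM in DHCA1 to DHCA4, against 2396, 4126, 1659.7 and 2754 CPM in NC1 to NC4. They too were lowest in DHCA2 and highest in NC2. Between these libraries the orders were not the same. NC3 lay above DHCA1 in these markers but below it in miR-1298 (234 and 675 CPM). NC2 also stood apart in the markers of smooth muscle and fibroblasts (5 of 5 listed), at 7462 CPM. These summed to between 2413 and 3887 CPM in the CPB/DHCA libraries and between 2422 and 3836 CPM in the other control libraries. The neuronal markers of NC2 were the lowest of the control group (235151 CPM). DHCA3 stood apart as well, with the lowest neuronal markers (184465 CPM) and the highest oligodendrocyte markers (23252 CPM) of all 8 libraries. DHCA3 lay above DHCA4 in the choroid plexus and ependyma markers (3658 and 1863 CPM), with miR-1298 at 781 and 716 CPM. The part of these cell types in the levels of the Htr2c miRNAs was not tested.

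**Figure D3:**
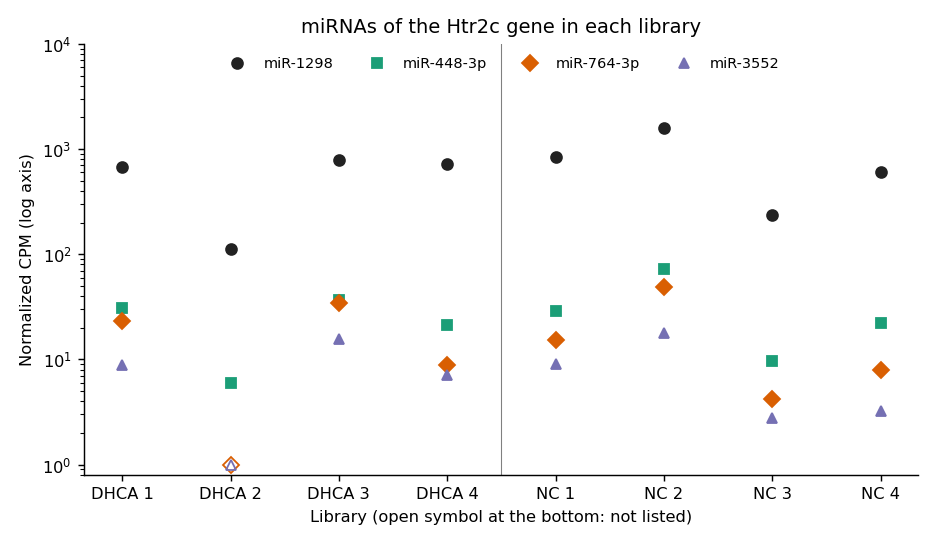
Normalized CPM (vertical, log axis) of 4 miRNAs of the Htr2c gene in each library, with the CPB/DHCA libraries left and the control libraries right of the line. Open symbols at the bottom mark miRNAs that were not listed. All 4 are lowest or not listed in DHCA2 (miR-1298 at 112 CPM) and highest in NC2 (miR-1298 at 1599 CPM).

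miRNAs annotated as products of small Cajal body or nucleolar RNAs varied little between libraries where they were abundant. In RefSeq the precursors of miR-1843a, miR-1839 and miR-3068 carry the symbols Scarna3, Scarna15 and Snora58, and their 6 mature miRNAs took 42.4% of all late-numbered tags. miR-1843a-5p had 640.1, 759, 543 and 691 CPM in DHCA1 to DHCA4, against 717, 541, 686 and 749 CPM in NC1 to NC4, and its highest library held 1.40 times the level of its lowest. Its log2 fold change was -0.03 (standard error 0.17), with a 95% interval of -0.42 to 0.35.

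miR-1839-5p had 357, 266, 334 and 318 CPM in DHCA1 to DHCA4, against 255, 327, 355 and 372 CPM in NC1 to NC4. DHCA2 and NC1 were its low libraries, at nearly the same level. Its log2 fold change was -0.04 (standard error 0.18, 95% interval -0.44 to 0.37). The rare partner miR-1839-3p had 3, 0, 4 and 3 tags in DHCA1 to DHCA4, against 3, 9, 2 and 7 tags in NC1 to NC4, and a fitted log2 difference of -0.84 (standard error 0.69, edgeR adjusted p = 0.88).

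miR-3068-3p, whose gene overlaps that of the demethylase Alkbh1, had 211, 242, 247 and 224 CPM in DHCA1 to DHCA4, against 175, 152, 247 and 153 CPM in NC1 to NC4. 3 control libraries lay below every CPB/DHCA library, and NC3 lay level with the highest of them. The means were 231 ± 16.7 CPM in the CPB/DHCA group and 182 ± 44.6 CPM in the control group (SD, n = 4 each), and the log2 fold change 0.34 (95% interval -0.10 to 0.79, standard error 0.20, edgeR adjusted p = 0.73). Without NC3 the log2 fold change was 0.56 with an unadjusted p of 0.012 in edgeR, still a fold change under 1.5. The partner miR-3068-5p had 7, 8, 3 and 7 tags in DHCA1 to DHCA4, against 4, 0, 9 and 7 tags in NC1 to NC4 (log2 fold change 0.52, standard error 0.74).

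miR-1843a-3p had 24.9, 64.1, 40.0 and 60.4 CPM in DHCA1 to DHCA4, against 35.1, 39.5, 41.6 and 36.7 CPM in NC1 to NC4. The control libraries lay within the span of the CPB/DHCA libraries, and the log2 fold change was 0.29 (standard error 0.30). Its sequence differs from that of miR-1843b-3p, whose gene overlaps the ubiquitin ligase gene Cop1, by A12C, counted from the 5′ end with the base of miR-1843a-3p first, and by length (22 and 21 nt). The alignment allowed 1 mismatch, so the counts of these near copies may not be fully separate. miR-1843b-3p had 2, 0, 4 and 6 tags in DHCA1 to DHCA4, against 3, 7, 2 and 2 tags in NC1 to NC4.

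The 6 miRNAs under sca or snoRNA symbols summed to 852, 673, 822 and 738 tags in DHCA1 to DHCA4, against 782, 894, 970 and 835 tags in NC1 to NC4. Their share of the late-numbered tags was 43.2, 59.2, 39.0 and 45.4% in DHCA1 to DHCA4, against 40.1, 29.3, 52.6 and 46.6% in NC1 to NC4. DHCA2 and NC3, where this share was highest, were the libraries in which miR-1298 was lowest. Both are parts of the same total, so a fall of miR-1298 by itself raises this share. In tags not scaled to library size, the 6 miRNAs were lowest in DHCA2 (673), the library with the smallest total (508574). This low sum therefore does not show a lower level. In normalized CPM, miR-1843a-5p was highest in DHCA2 (759), whereas miR-1839-5p was low there (266).

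Other miRNAs within protein-coding genes made up much of the rest. Of the 34 precursors behind the 41 mature miRNAs, 33 were matched by name to RefSeq, and 26 of these overlap a protein-coding gene of GRCr8 (the strand was not compared). miR-872 lies in Ift74, a gene of transport within cilia, and its 3p arm had 261, 226, 268 and 238 CPM in DHCA1 to DHCA4, against 269, 279, 241 and 181 CPM in NC1 to NC4. The CPB/DHCA libraries lay within the span of the control libraries, and the log2 fold change was 0.04 (standard error 0.19, 95% interval -0.38 to 0.45). miR-872-5p had 67.4, 32.0, 72.8 and 60.4 CPM in DHCA1 to DHCA4, against 36.6, 49.1, 81.8 and 71.9 CPM in NC1 to NC4 (log2 fold change -0.03, standard error 0.32).

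miR-1249, within Kiaa0930, had 182, 124, 181 and 103 CPM in DHCA1 to DHCA4, against 114, 169, 161 and 157 CPM in NC1 to NC4. miR-879-5p, within Elapor2, had 135, 80.1, 147 and 110.2 CPM in DHCA1 to DHCA4, against 122, 103, 98.4 and 119.8 CPM in NC1 to NC4. miR-3559-5p, within Zdhhc15, which encodes a palmitoyltransferase, had 80.6, 52.1, 72.8 and 96.0 CPM in DHCA1 to DHCA4, against 87.0, 83.8, 123 and 68.7 CPM in NC1 to NC4. In all 3 the groups overlapped, with log2 fold changes of -0.02 (standard error 0.24) for miR-1249, 0.10 (standard error 0.22) for miR-879-5p and -0.27 (standard error 0.25) for miR-3559-5p. miR-3099, which overlaps no protein-coding gene, had 61.5, 20.0, 80.0 and 28.4 CPM in DHCA1 to DHCA4, against 53.4, 77.8, 47.1 and 49.5 CPM in NC1 to NC4. DHCA2 and DHCA4 were its low libraries, and its log2 fold change was -0.25 (standard error 0.40).

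miR-873 and miR-876 lie in Lingo2, a gene of a neuronal membrane protein with leucine-rich repeats. miR-873-3p had 46.9, 86.1, 55.7 and 64.0 CPM in DHCA1 to DHCA4, against 74.8, 32.3, 66.6 and 81.5 CPM in NC1 to NC4. miR-873-5p had 17.6, 66.1, 37.1 and 30.2 CPM in DHCA1 to DHCA4, against 68.7, 20.3, 52.7 and 57.5 CPM in NC1 to NC4. Both arms were highest among the CPB/DHCA libraries in DHCA2 and lowest among the control libraries in NC2, and their log2 fold changes were -0.01 (standard error 0.31) for the 3p arm and -0.41 (standard error 0.45) for the 5p arm. miR-876 had 4, 3, 6 and 0 tags in DHCA1 to DHCA4, against 10, 3, 9 and 2 tags in NC1 to NC4 (log2 fold change -0.69, standard error 0.75, edgeR adjusted p = 0.95). A predicted sequence that equals the first 18 of the 21 bases of miR-873-5p was counted apart, with 9, 6, 10 and 9 tags in DHCA1 to DHCA4, against 16, 8, 14 and 16 tags in NC1 to NC4.

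Of the mirtrons, miR-1224 in Vwa5b2 was the most abundant, with 14.6, 30.0, 37.1 and 30.2 CPM in DHCA1 to DHCA4, against 36.6, 32.3, 34.7 and 49.5 CPM in NC1 to NC4. Its means were 28.0 ± 9.50 CPM in the CPB/DHCA group and 38.3 ± 7.70 CPM in the control group (SD, n = 4 each). 3 CPB/DHCA libraries lay below every control library, and DHCA3 lay above 3 of the control libraries. The log2 fold change was -0.45 (standard error 0.30, 95% interval -1.12 to 0.23, adjusted p = 0.79 in edgeR). miR-3102, within Arhgef17, had 12 tags over the CPB/DHCA libraries and 19 over the control libraries. miR-877, within Abcf1, had 2 tags over the CPB/DHCA libraries and 6 over the control libraries and was not tested.

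miRNAs of the imprinted Dlk1-Dio3 region were rare in this set. miR-1193-3p lies among the genes of the large miRNA cluster from Mir379 onwards, and had 11, 8, 7 and 6 tags in DHCA1 to DHCA4, against 11, 7, 8 and 9 tags in NC1 to NC4 (log2 fold change 0.07, standard error 0.34). A predicted sequence equal to its first 21 of 22 bases was counted apart, with 9, 9, 9 and 7 tags in DHCA1 to DHCA4, against 10, 12, 9 and 12 tags in NC1 to NC4. miR-370-5p, which has the same seed and whose gene lies beside that of miR-1188, had 0, 2, 0 and 3 tags in DHCA1 to DHCA4, against 3, 5, 5 and 6 tags in NC1 to NC4. miR-1188-5p itself had 5, 6, 5 and 2 tags in DHCA1 to DHCA4, against 5, 12, 2 and 6 tags in NC1 to NC4 (log2 fold change -0.22, standard error 0.54).

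miR-6331, whose gene lies in the same cluster within 10000 bases of those of miR-382, miR-134 and miR-154, was the one late-numbered miRNA past the fold change and unadjusted p thresholds. It had 6, 3, 4 and 0 tags in DHCA1 to DHCA4, against 0, 2, 0 and 0 tags in NC1 to NC4. With 13 tags against 2, and DHCA4 without a listed tag, the groups overlapped. The log2 fold change was 2.62 (standard error 1.12, 95% interval 0.12 to 5.12, unadjusted p of 0.042, adjusted p = 0.53 in edgeR), and an exact two-sided permutation test gave p = 0.14. In tags scaled to the libraries, the CPB/DHCA group had 7.55 times the rate of the control group (95% exact interval 1.71 to 68.9, counting error only), and 3.25 times (1.11 to 11.5) with 1 tag in each empty cell. With 1 library left out it passed the filter in 4 of 8 fits and passed both thresholds only without DHCA4, at an unadjusted p of 0.011.

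miR-6321, within Rufy3, a gene of axon growth, had 19, 11, 15 and 17 tags in DHCA1 to DHCA4, against 0, 15, 5 and 15 tags in NC1 to NC4. In normalized CPM this was 25.4 ± 4.33 in the CPB/DHCA group and 12.2 ± 10.8 in the control group (SD, n = 4 each). NC1 had no listed tag and NC3 was low, whereas NC4 (24.0 CPM) lay above DHCA2 (22.0 CPM) and DHCA3 (21.4 CPM). The log2 fold change was 1.04 (standard error 0.64, 95% interval -0.40 to 2.48, adjusted p = 0.75 in edgeR; exact two-sided permutation test, p = 0.086), and it was 0.67 without NC1. The rate of tags was 2.06 times that of the control group (95% exact interval 1.34 to 3.21), an interval that leaves out the spread between libraries.

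The remaining miRNAs rested on a few tags. miR-3085 had 2, 3, 3 and 2 tags in DHCA1 to DHCA4, against 2, 12, 2 and 3 tags in NC1 to NC4, and its log2 fold change of -0.63 (standard error 0.65) was 0.25 without NC2. Totals over the CPB/DHCA and control libraries were 14 and 17 tags for miR-874-3p in Klhl3, and 14 and 16 for miR-1306-5p in Dgcr8, the gene of the partner of Drosha. They were 8 and 9 tags for miR-6319, 4 and 6 for miR-3559-3p, and 2 and 4 for miR-935 in Cacng8, an auxiliary subunit of AMPA receptors. miR-2985, within the AMPA receptor gene Gria2, had 4 tags in NC4 and was listed in no other library.

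For 8 precursors both arms were listed, and which arm was the more abundant differed between them. The 5p arm held 99.7% of the tags of miR-879, 98.2% of miR-1839, 97.8% of miR-3559 and 94.0% of miR-1843a. It held 40.8% of miR-873, 19.4% of miR-872 and 4.00% of miR-3068, for which the 3p arm prevailed. The 8th, miR-1247, had 6 tags of the 5p and 3 of the 3p arm in all.

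No difference in these shares between the groups passed a test, and with 7 precursors compared a single one could not have reached an adjusted p under 0.05. For miR-873 the 5p share was 27.3, 43.4, 40.0 and 32.1% in DHCA1 to DHCA4, against 47.9, 38.6, 44.2 and 41.4% in NC1 to NC4. The means were 35.7 ± 7.33% in the CPB/DHCA group and 43.0 ± 3.97% in the control group (SD, n = 4 each; exact two-sided permutation test, p = 0.17, adjusted p = 0.70 over the 7 precursors compared). For miR-872 they were 18.6 ± 4.16% in the CPB/DHCA group and 20.2 ± 7.94% in the control group (SD, n = 4 each; exact permutation test, adjusted p = 0.93). The other 5 had adjusted p of 0.70 or more in the same exact test, whose smallest possible p is 0.029, and in no precursor were the groups free of overlap.

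**Figure D4:**
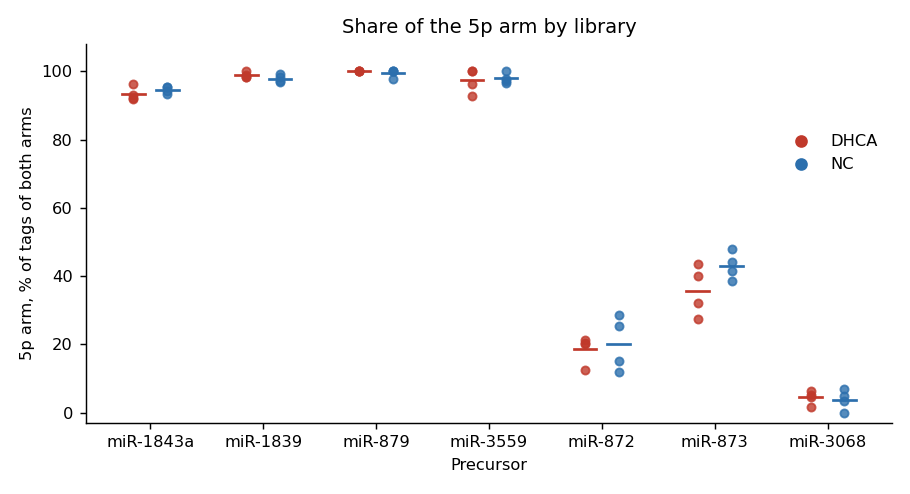
Share of the 5p arm (vertical, % of the tags of both arms) in each library for the 7 precursors compared, with the 4 CPB/DHCA libraries in red at the left and the 4 control libraries in blue at the right of each pair. Horizontal bars are group means. The 5p arm prevails in miR-1843a, miR-1839, miR-879 and miR-3559 and the 3p arm in miR-872, miR-873 and miR-3068, with overlapping groups throughout.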

How the data were processed

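The authors extracted total RNA with TRIzol, ligated adaptors with a small RNA kit, trimmed reads with cutadapt 1.9.3 and aligned them with Novoalign 3.02.12, allowing 1 mismatch, to hairpins of miRBase and to hairpins predicted anew on the pooled reads. The submitters' processing notes name rn6, and the release of miRBase is not given in the sources used here. The deposited count table, used for all results, holds tag counts per mature miRNA on 669 lines, of which several may belong to 1 name with the same counts. A second deposited table gives a score, the TPM of the authors in whole numbers, and was used only in alternatives with limma. The labels give 1 batch for all 8 libraries.

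For the tests, edgeR 4.0.16 was run in R 4.3.3 (TMM factors 0.891 to 1.13, glmQLFit and glmQLFTest, common biological coefficient of variation 0.415) over the 467 miRNAs kept (387 of miRBase and 80 predicted), with Benjamini-Hochberg adjustment over all 467. Normalized CPM use the same factors. Standard errors were taken from the fitted change and its F statistic. Exact permutation tests used all 70 assignments of libraries, with a smallest p of 0.029. p-values set the difference between the groups against the variation between these libraries, and intervals of tag ratios cover counting error only. DESeq2 1.42.0 and limma 3.58.1 served as alternatives, with other scalings, filters, a replicate block, and each library left out. The procedure was also run on simulated counts that gave every miRNA the same spread, so this does not show its power in these libraries. Python 3.11.15, pandas 2.3.3, numpy 2.4.6 and scipy 1.17.1 did the rest. Genes at or near the precursors were taken by name from RefSeq (GRCr8), whose coordinates are not given because the builds differ.

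The set, the lists and the tests were chosen with earlier results of these data known. Named were the 10 most abundant miRNAs, the tested ones past the thresholds or with the 6 smallest p in each direction, listed groups (mirtrons, Htr2c, Lingo2 and Dlk1-Dio3 miRNAs and single loci), those with both arms, and those sharing a seed with a lower-numbered miRNA. The other miRNAs of Htr2c, miR-6319, miR-2985 and miR-3099 were added after their values were seen. Patients' measurements were not analysed here.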

Additional observations from a re-analysis of the deposited data

Results flagged for a closer look

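Among the 58 groups of 4 libraries examined (29 tested miRNAs in each group), 2 held a library far from the other 3. Chance gives this in about 1 in 20 of such groups, so 2 of 58 do not exceed that share. miR-1298 in DHCA2 had 112 CPM, and the gap to the next CPB/DHCA library made up 0.842 of the range of that group. miR-6331 in NC2 had 2.39 CPM, from 2 tags. As no other control library had a listed tag and these were set to 0, its gap equals the whole range whatever its count, so it marks the limit of detection and not an unusual level.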

How the results depend on the processing

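The count of 1 late-numbered miRNA past the fold change and unadjusted p thresholds was 0 under DESeq2, without a filter, with miRNAs listed in all 8 libraries (which leaves out miR-6331), with the replicate block and with limma on log2(TPM + 0.1) or log2(TPM + 10), and 0 to 1 with 1 library left out. It was 1 with RLE factors, library totals, empty cells at 1 tag, limma on log2(TPM + 1), miRBase miRNAs only, or the trimmed predicted copies added to miR-1193-3p and miR-873-5p, an alternative chosen after seeing the data. At an adjusted p under 0.05 the count was 0 in every alternative run. miR-6331 had a log2 fold change of 2.95 under DESeq2, 2.63 without a filter, 2.74 with the block, 1.62 with empty cells at 1 tag, 2.43 with limma on log2(TPM + 0.1) and 0.16 on log2(TPM + 10), and 2.31 to 3.03 with 1 library left out. Over all tested miRNAs, 34 passed the thresholds, 12 with limma on log2(TPM + 10), 19 among miRBase miRNAs only and 17 to 40 with 1 library left out. Of the 41, 30 were listed in at least 4 libraries, 17 in all 8, and 15 had at least 10 counts in at least 4.

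Replicate numbers were not taken to pair the rats. Same-numbered libraries deviated together with correlations of 0.205, -0.147, -0.0726 and 0.588 for replicates 1 to 4. The highest correlation of each CPB/DHCA library with a differently numbered control library was 0.263, 0.268, 0.331 and -0.172. Only for replicate 4 was the same-numbered correlation the higher. With the block, 31 of all tested miRNAs passed the thresholds.

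Some log2 fold changes turned sign. Under DESeq2 and RLE factors the log2 fold change was 0.02 for miR-1249, miR-1843a-5p and miR-872-5p, 0.01 for miR-1839-5p and 0.04 for miR-873-3p. With miRNAs listed in all 8 libraries it was 0.02 for miR-1249 and miR-873-3p, 0.01 for miR-872-5p and 0.00 for miR-1839-5p. Among miRBase miRNAs only it was 0.01 for miR-1249 and miR-872-5p, 0.00 for miR-1839-5p and miR-1843a-5p and 0.02 for miR-873-3p. With empty cells at 1 tag it was 0.00 for miR-1249 and 0.01 for miR-873-3p, which also had 0.01 with the block. With limma, miR-873-3p had 0.05 on log2(TPM + 1) and log2(TPM + 0.1) and 0.02 on log2(TPM + 10), miR-872-5p had 0.00 on log2(TPM + 10), and miR-1193-3p had -0.00 on log2(TPM + 1) and log2(TPM + 0.1), and -0.03 with the trimmed copies. With 1 library left out, the range took in both signs for miR-1298 (-0.77 to 0.08), miR-1843a-5p (-0.10 to 0.05), miR-1839-5p (-0.11 to 0.09), miR-872-3p (-0.08 to 0.14), miR-872-5p (-0.17 to 0.21), miR-1249 (-0.13 to 0.14), miR-879-5p (-0.02 to 0.29), miR-873-3p (-0.21 to 0.14), miR-3099 (-0.61 to 0.05), miR-1193-3p (-0.07 to 0.26), miR-1188-5p (-0.48 to 0.20) and miR-3085 (-0.84 to 0.25). The cause was not tested. In all, 364 of 431 values of the 22 miRNAs with a fold change kept their direction and their side of the threshold, 59 turned sign and 8 lost the call. The median over the late-numbered miRNAs tested was -0.11 to 0.08 with 1 library left out. Without a filter it was -0.22 over the 41, which takes in the 12 with 2 to 8 tags each, beside -0.04 over all 615 miRNAs.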
